A study of Mus musculus with 24 samples.

Results

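The genes that differed when BRAFV600E was switched on beside p53R172H in mouse small intestinal (SI) organoids were described from 8 of the 24 RNA-seq libraries of the series. The 8 libraries were chosen by their labels. They came from 2 SI organoid cultures, each sequenced as 2 replicates after 4-hydroxytamoxifen (on) and 2 replicates after ethanol (off). The p53 culture carried the genotype Trp53LSL-R172H/+ with Villin::CreERT2, and the BRAFp53 culture carried BraffloxV600E/+ and Trp53LSL-R172H/+ with the same transgene. Both were from C57BL/6N mice, and all knock-in alleles were heterozygous. Villin::CreERT2 makes Cre recombinase in the intestinal epithelium, and the enzyme acts only once 4-hydroxytamoxifen is present. Off organoids thus made normal BRAF, and p53 from the unedited Trp53 copy. They carried the same alleles and transgene as the treated organoids. SI organoids received 0.5 µM 4-hydroxytamoxifen or ethanol for 24 hours, and RNA was taken 8 days after recombination. Each genotype was 1 donor culture, so a difference between genotypes cannot be told apart from a difference between cultures, and p-values measure the spread between replicate libraries of a culture.

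BRAF is a kinase that RAS switches on, and it activates the kinases MEK and ERK in turn. The V600E substitution keeps BRAF active without RAS, and ERK then induces transcription factors of the FOS, JUN, ETS and EGR families together with phosphatases and adaptors that damp the pathway. p53 is a transcription factor that induces cell cycle inhibitors and death genes after damage or oncogene activity, and the R172H substitution removes its normal DNA binding and impairs the wild-type protein made from the other allele. SI crypt organoids grow from LGR5-expressing stem cells and contain absorptive enterocytes, mucus-making goblet cells, hormone-making enteroendocrine cells, Paneth cells and tuft cells.

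The 8 libraries held 54.7 to 68.2 M gene counts each (M, 1e+06 counts), with a median of 60.3 M, and 19493 to 20456 genes had a count. Levels are given in CPM, gene counts scaled to a library of 1e+06 and between libraries by edgeR. A floor of 3 counts was worth 0.0437 to 0.0545 CPM. Between replicates, log levels across genes had a Pearson r of 0.979 to 0.981 in these 4 groups, and no replicate pair agreed within counting noise. Epithelial markers were high in every library. Their summed level was 12514 and 13016 CPM in the BRAFp53 on libraries and 8605 to 9094 CPM in the other 6, with the keratins Krt8, Krt18 and Krt19 higher in the BRAFp53 on libraries. The summed level of 15 stromal and immune markers was 11.9 to 14.8 CPM in the 8 libraries, and 5 of the 15 were at 0 in all of them.

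Neither targeted gene passed the test between the on libraries. Braf (ENSMUSG00000002413), the edited kinase gene, had 15 and 19.1 CPM in the p53 off and 15.7 and 21 in the p53 on libraries. Braf had 12.7 and 15.8 CPM in the BRAFp53 off and 20.2 and 16.9 in the BRAFp53 on libraries, and the on libraries of the cultures overlapped (log2 difference 0.02, SE 0.19, edgeR adjusted p = 0.973). Trp53 (ENSMUSG00000059552) had 145 and 145 CPM in the p53 off and 241 and 251 in the p53 on libraries. Trp53 had 136 and 141 CPM in the BRAFp53 off and 224 and 173 in the BRAFp53 on libraries. Its on libraries were above the off libraries in both cultures. It was lower in BRAFp53 on than in p53 on in all 4 library pairs, but the difference did not pass the test (log2 difference -0.31, SE 0.13, edgeR adjusted p = 0.164). Gene counts do not separate mutant from wild-type transcripts, so the Braf values do not check recombination. In the Trp53 knock-in allele a STOP cassette blocks expression until Cre acts, so total Trp53 counts can rise on recombination. Whether the higher Trp53 level came from the edited copy was not tested.

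Before induction the cultures were close but not equal. Of 16856 genes tested, 49 (0.291%) differed between the off libraries at an edgeR adjusted p under 0.05, 17 higher (0.101%) and 32 lower (0.19%) in the BRAFp53 culture. The median absolute log2 difference between cultures was 0.17 with the off and 0.33 with the on libraries. A total of 43 genes passed both between the off libraries and between the on libraries, which share no library, and all 43 differed in the same direction. They were 87.8% of the genes called in the off libraries and 1.92% of those called in the on libraries, and 34 of the 43 did not pass when the change on induction was compared. The off count was 25 or 21 without BRAFp53 off replicate 1 or 2, and 17 or 28 without p53 off replicate 1 or 2.

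**Figure D1:**
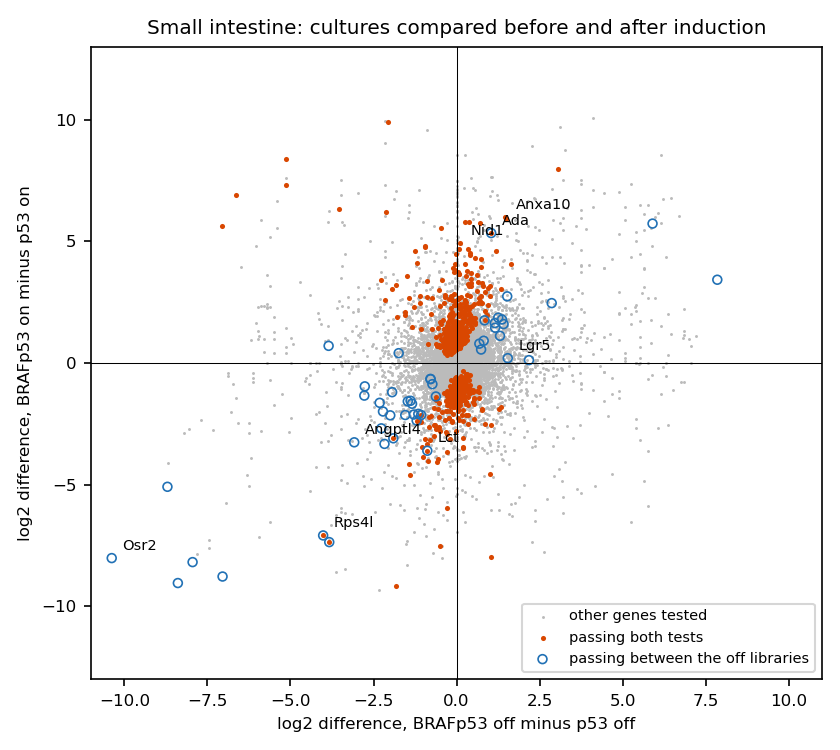
Log2 difference between the BRAFp53 and p53 cultures in the off libraries (x axis) against that in the on libraries (y axis), 1 point per gene tested, with genes passing both tests (the direct comparison and the difference of responses, both described next) in orange and genes passing between the off libraries ringed in blue. In all, 714 genes passed both tests and 49 passed between the off libraries. Orange points spread along the y axis, and some, such as Rps4l, lie far from 0 on the x axis.

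Adding BRAFV600E was measured as a direct comparison of BRAFp53 on with p53 on, and as a difference of responses, the on minus off change of the BRAFp53 culture less that of the p53 culture. In the direct comparison 2243 genes (13.3%) passed, 1308 higher (7.76%) and 935 lower (5.55%) in BRAFp53 on. In the difference of responses 735 genes (4.36%) passed, 471 higher (2.79%) and 264 lower (1.57%). A gene that passed in both with the same direction is said below to have risen or fallen, and 714 genes (4.24%) did so, 455 rising (2.7%) and 259 falling (1.54%). DESeq2 called 7.2% of the genes in both tests and limma-voom 5.1%, and 14.6% had an unadjusted edgeR p under 0.05 in both. The tests share the on libraries, so passing in both is a criterion and not a replication. Of the 714, 469 differed by at least 1 on the log2 scale in the direct comparison, 282 higher and 187 lower, and 254 still passed both tests whichever of the 8 libraries was left out, 167 higher and 87 lower. The direct count was 1012 without BRAFp53 on replicate 2, 1172 without p53 on replicate 1 and 1239 without p53 on replicate 2. The difference of responses called 321 genes without BRAFp53 on replicate 2, 392 without either p53 on replicate, 447 to 477 without either BRAFp53 off replicate and 461 to 486 without either p53 off replicate. The count in both was 311 without BRAFp53 on replicate 2, 377 to 380 without either p53 on replicate and 435 to 465 without any 1 of the 4 off libraries.

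The 12 named genes with the largest rise in the direct comparison, among genes averaging 3 or more in log2 CPM whose on libraries did not overlap between the cultures, were Anxa10, Akp3, Ada, Nid1, Ecm1, Sprr1a, Tm4sf4, Enpp3, Slc7a11, Car2, S100a6 and Zg16. Of all genes tested, 28.2% were separated in this way as higher and 29.9% as lower, so separation alone is no result. All 12 kept both calls without each library in turn and under every other alternative run. Anxa10 (ENSMUSG00000031635, GRCm38 chromosome 8, 62057042 to 62123150), which encodes an annexin known from gastric epithelium, had 2.29 and 1.4 CPM in the p53 off and 5.05 and 1.53 in the p53 on libraries. Anxa10 had 4.16 and 6.01 CPM in the BRAFp53 off and 189 and 238 in the BRAFp53 on libraries. Both BRAFp53 on libraries were far above the other 6 (log2 difference 6.00, SE 0.42, edgeR adjusted p = 1.23e-06). Sprr1a (ENSMUSG00000050359, GRCm38 chromosome 3, 92483952 to 92485895), a small proline-rich protein of cornified and regenerating epithelium, had 3.06 and 2.73 CPM in the p53 off and 6.09 and 2.69 in the p53 on libraries. Sprr1a had 4.6 and 2.79 CPM in the BRAFp53 off and 129 and 99.7 in the BRAFp53 on libraries, again high in the BRAFp53 on libraries alone (log2 difference 4.69, SE 0.34, edgeR adjusted p = 1.51e-06). Ecm1 (ENSMUSG00000028108, GRCm38 chromosome 3, 95734147 to 95739569), a secreted glycoprotein of the extracellular matrix, had 2.52 and 1.25 CPM in the p53 off and 0.917 and 1.67 in the p53 on libraries. Ecm1 had 0.726 and 1.23 CPM in the BRAFp53 off and 23.2 and 49 in the BRAFp53 on libraries. Its BRAFp53 on replicates were the furthest apart, by ratio, of the 12 (log2 difference 4.82, SE 0.48, edgeR adjusted p = 2e-05). Tm4sf4 (ENSMUSG00000027801, GRCm38 chromosome 3, 57425314 to 57441677), a tetraspan membrane protein, had 72.7 and 93.9 CPM in the p53 off and 125 and 102 in the p53 on libraries. Tm4sf4 had 94.2 and 80.9 CPM in the BRAFp53 off and 2517 and 3269 in the BRAFp53 on libraries (log2 difference 4.67, SE 0.22, edgeR adjusted p = 5.48e-08).

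The sequence just upstream of the start was read for these 4 genes and for Plaur, described below, because members that rose together could be set beside the binding letters of AP-1, the FOS and JUN dimer that ERK signalling induces. These windows do not stand for all risen genes, whose share is given after the sequences. Each line gives the 150 bases before the RefSeq transcription start, 5′ to 3′ on the gene's strand in GRCm38.p6, with matches to the AP-1 letters TGANTCA in capitals. Sprr1a is chr3:92485882-92486031 on the minus strand, Anxa10 is chr8:62123194-62123343 on the minus strand, Ecm1 is chr3:95739570-95739719 on the minus strand, Plaur is chr7:24462333-24462482 on the plus strand, and Tm4sf4, shown as a gene that rose without the letters, is chr3:57425260-57425409 on the plus strand.
Sprr1a: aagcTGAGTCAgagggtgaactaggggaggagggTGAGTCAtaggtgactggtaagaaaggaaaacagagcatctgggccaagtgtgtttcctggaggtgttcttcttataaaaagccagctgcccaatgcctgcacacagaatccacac
Anxa10: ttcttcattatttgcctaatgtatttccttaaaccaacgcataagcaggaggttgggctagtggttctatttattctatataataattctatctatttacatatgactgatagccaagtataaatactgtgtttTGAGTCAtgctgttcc
Ecm1: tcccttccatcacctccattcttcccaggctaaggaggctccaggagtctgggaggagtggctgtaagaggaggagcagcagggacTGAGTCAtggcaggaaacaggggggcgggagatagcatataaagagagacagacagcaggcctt
Plaur: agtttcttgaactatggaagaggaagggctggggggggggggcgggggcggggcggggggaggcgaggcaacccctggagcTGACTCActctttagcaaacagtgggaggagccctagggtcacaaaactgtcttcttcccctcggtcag
Tm4sf4: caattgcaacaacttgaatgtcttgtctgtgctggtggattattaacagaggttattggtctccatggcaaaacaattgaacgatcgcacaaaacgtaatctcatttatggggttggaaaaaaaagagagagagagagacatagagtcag
The matches begin 146 and 116 bases before the start in Sprr1a, 16 bases in Anxa10, 64 bases in Ecm1 and 69 bases in Plaur. The gene positions given above come from another annotation. By these, most of the Tm4sf4 window and the last bases of the Sprr1a window lie inside the gene. Windows of 250 bases before to 50 after the start were found for 351 of the 455 genes that rose, and 53 of them (15.1%) held the letters on either strand. The letters were in 24 of the 195 windows of genes that fell (12.3%), in 748 of 11155 windows of all genes tested (6.71%) and in 2565 of all 32851 windows of the table (7.81%). The cAMP response element letters TGACGTCA, which do not match the AP-1 letters, were in 2.28% of the windows of risen genes, 0.513% of those of fallen genes, 3.42% of those of all genes tested and 1.79% of all windows. The ETS letters CCGGAAGT were in 4.56%, 4.62%, 8.63% and 3.89% of the same windows. Of the 12 genes above, 10 had a window and 3 of these, Anxa10, Ecm1 and Sprr1a, held the AP-1 letters. All 3 are printed above, with Plaur from outside the 12, and Tm4sf4 is the only window printed without the letters. The printed windows thus overstate how common the letters were among risen genes. A match of letters is a description of the window and not of a bound site.

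Akp3 (ENSMUSG00000036500, GRCm38 chromosome 1, 87124973 to 87127912), an intestinal alkaline phosphatase, had 34.4 and 49.7 CPM in the p53 off and 33.7 and 46.8 in the p53 on libraries. Akp3 had 69 and 67.8 CPM in the BRAFp53 off and 1822 and 2492 in the BRAFp53 on libraries (log2 difference 5.74, SE 0.30, edgeR adjusted p = 1.23e-07). Its near relative Alpi, the alkaline phosphatase of the enterocyte brush border, had 642 and 896 CPM in the p53 off and 462 and 495 in the p53 on libraries. Alpi had 1116 and 868 CPM in the BRAFp53 off and 1625 and 2843 in the BRAFp53 on libraries, so its BRAFp53 off libraries were already above its p53 on libraries (log2 difference 2.22, SE 0.27, edgeR adjusted p = 0.000113). The Alpi call in the difference of responses was lost without BRAFp53 off replicate 2, BRAFp53 on replicate 2 or p53 on replicate 1 (edgeR adjusted p of 0.051 to 0.0536). Ada (ENSMUSG00000017697, GRCm38 chromosome 2, 163726584 to 163750239), adenosine deaminase, a purine enzyme abundant in proximal SI enterocytes, had 11 and 10.5 CPM in the p53 off and 14.5 and 16.1 in the p53 on libraries. Ada had 21 and 23.3 CPM in the BRAFp53 off and 637 and 608 in the BRAFp53 on libraries. It had the smallest SE of the 12 (log2 difference 5.35, SE 0.12, edgeR adjusted p = 3.11e-11), and its BRAFp53 off libraries were above both p53 groups.

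Nid1 (ENSMUSG00000005397, GRCm38 chromosome 13, 13437551 to 13512269), the basement membrane linker nidogen, had 2.01 and 2.98 CPM in the p53 off and 1.81 and 1.67 in the p53 on libraries. Nid1 had 2.12 and 3.24 CPM in the BRAFp53 off and 45.2 and 61 in the BRAFp53 on libraries (log2 difference 4.93, SE 0.27, edgeR adjusted p = 1.96e-07). Slc7a11 (ENSMUSG00000027737, GRCm38 chromosome 3, 49892526 to 50443614), the cystine importer that supplies glutathione synthesis, had 1.83 and 5.1 CPM in the p53 off and 3.07 and 3.13 in the p53 on libraries. Slc7a11 had 4.12 and 2.79 CPM in the BRAFp53 off and 49.2 and 89 in the BRAFp53 on libraries (log2 difference 4.48, SE 0.43, edgeR adjusted p = 1.59e-05). In both genes the 6 other libraries stayed at or under 5.1 CPM, and both BRAFp53 on replicates were well above them. S100a6 (ENSMUSG00000001025, GRCm38 chromosome 3, 90612882 to 90624181), a calcium-binding protein, had 16.6 and 16.6 CPM in the p53 off and 15.3 and 16.6 in the p53 on libraries. S100a6 had 20.8 and 19.1 CPM in the BRAFp53 off and 253 and 286 in the BRAFp53 on libraries (log2 difference 4.08, SE 0.15, edgeR adjusted p = 6e-09). Enpp3, an ectonucleotidase that degrades extracellular nucleotides, averaged 3.67 ± 0.55 CPM in p53 on and 88.7 ± 3.7 CPM in BRAFp53 on (SD, n = 2), a fitted log2 difference of 4.59. Car2, a cytosolic carbonic anhydrase, averaged 3.29 ± 1.17 CPM in p53 on and 63.8 ± 3.61 CPM in BRAFp53 on (SD, n = 2), a fitted log2 difference of 4.27. All of these were high in the BRAFp53 on libraries alone.

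**Figure D2:**
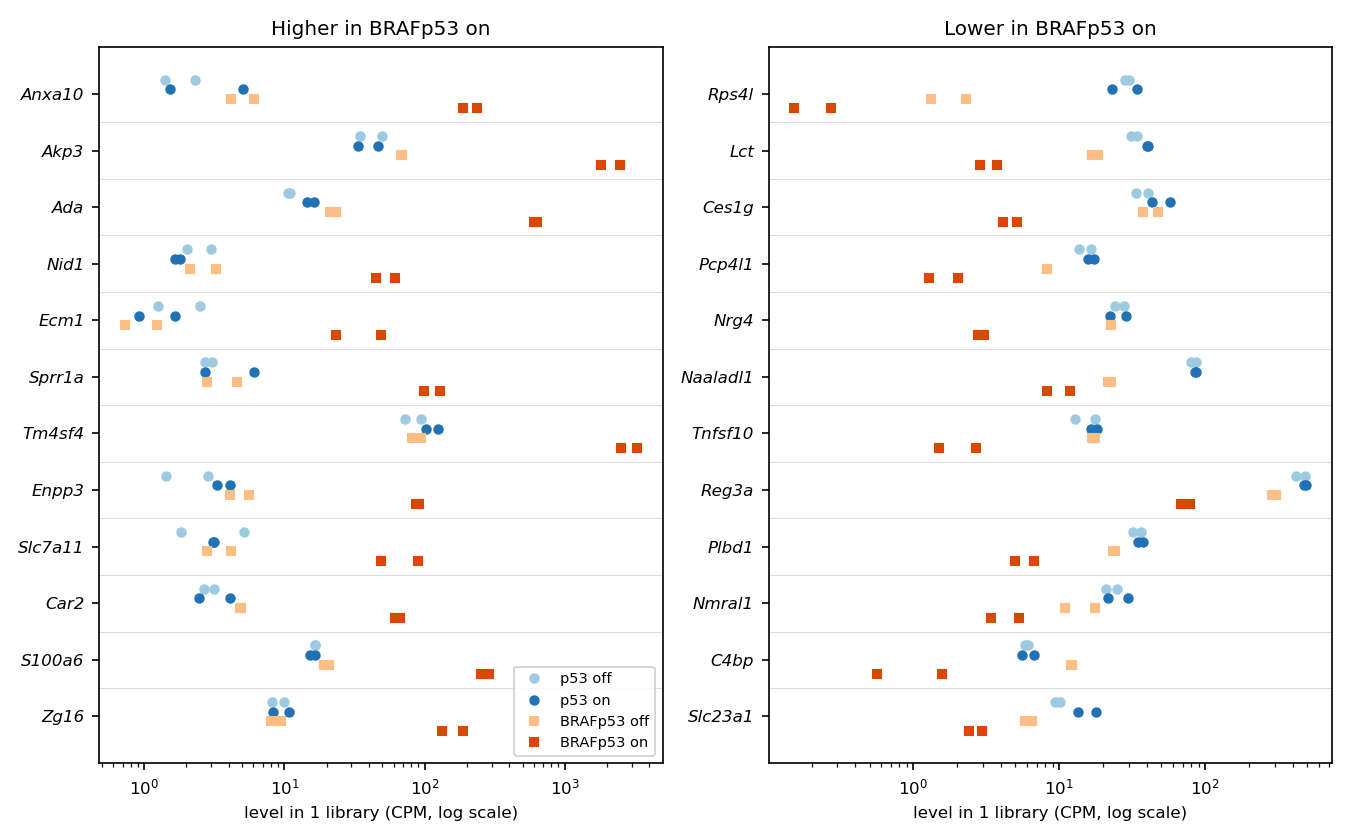
Level in each of the 8 libraries (CPM, log axis) of the 12 genes with the largest rise (left) and the 12 with the largest fall (right), with 1 point per library coloured by group. The BRAFp53 on points of Anxa10, Akp3 and Ada sit well above the other 6, those of Lct and Ces1g sit well below them, and those of Rps4l lie below BRAFp53 off points that are already low.

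The genes with the largest falls, chosen in the same way, were Rps4l, Lct, Ces1g, Pcp4l1, Nrg4, Naaladl1, Tnfsf10, Reg3a, Plbd1, Nmral1, C4bp and Slc23a1. Lct (ENSMUSG00000026354, GRCm38 chromosome 1, 128284756 to 128328318), lactase of the enterocyte brush border, had 30.9 and 34.1 CPM in the p53 off and 39.7 and 40.3 in the p53 on libraries. Lct had 16.8 and 18.4 CPM in the BRAFp53 off and 3.72 and 2.86 in the BRAFp53 on libraries. It was lowest in BRAFp53 on (log2 difference -3.61, SE 0.18, edgeR adjusted p = 5.85e-08), and the BRAFp53 off libraries were also below both p53 groups. Ces1g (ENSMUSG00000057074, GRCm38 chromosome 8, 93302369 to 93337308), a carboxylesterase that cleaves lipid and drug esters, had 33.7 and 40.6 CPM in the p53 off and 57.1 and 43 in the p53 on libraries. Ces1g had 47.5 and 37.5 CPM in the BRAFp53 off and 5.16 and 4.11 in the BRAFp53 on libraries, with the BRAFp53 off range overlapping both p53 groups and the BRAFp53 on libraries below all of them (log2 difference -3.44, SE 0.26, edgeR adjusted p = 2.2e-06). Nrg4 (ENSMUSG00000032311, GRCm38 chromosome 9, 55220222 to 55326844), a ligand of the ERBB4 receptor, had 24.2 and 27.6 CPM in the p53 off and 28.4 and 22.1 in the p53 on libraries. Nrg4 had 22.5 and 22.6 CPM in the BRAFp53 off and 3.03 and 2.76 in the BRAFp53 on libraries (log2 difference -3.13, SE 0.23, edgeR adjusted p = 1.76e-06). Its exons overlap those of Fbxo22 on the other strand by up to 202 bases, and Fbxo22 averaged 48.4 CPM in p53 on and 43.97 CPM in BRAFp53 on. Tnfsf10 (ENSMUSG00000039304, GRCm38 chromosome 3, 27317028 to 27342427), the death ligand TRAIL, had 12.7 and 17.4 CPM in the p53 off and 16.5 and 18.2 in the p53 on libraries. Tnfsf10 had 17.6 and 16.8 CPM in the BRAFp53 off and 2.69 and 1.49 in the BRAFp53 on libraries (log2 difference -3.06, SE 0.28, edgeR adjusted p = 1.07e-05). As for Nrg4, the p53 on range overlapped both off groups and both BRAFp53 on libraries were lower.

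Reg3a (ENSMUSG00000079516, GRCm38 chromosome 6, 78380709 to 78383827), an antimicrobial lectin, had 418 and 484 CPM in the p53 off and 494 and 473 in the p53 on libraries. Reg3a had 306 and 287 CPM in the BRAFp53 off and 79.1 and 67.7 in the BRAFp53 on libraries (log2 difference -2.72, SE 0.27, edgeR adjusted p = 2.06e-05). Plbd1, a phospholipase B-like protein, averaged 36.2 ± 1.91 CPM in p53 on and 5.84 ± 1.27 CPM in BRAFp53 on (SD, n = 2), a fitted log2 difference of -2.63. Slc23a1, a vitamin C transporter, averaged 15.7 ± 3.14 CPM in p53 on and 2.67 ± 0.391 CPM in BRAFp53 on, and C4bp, the complement regulator C4b-binding protein, averaged 6.17 ± 0.832 CPM in p53 on and 1.06 ± 0.707 CPM in BRAFp53 on. C4bp differed from the others in its off libraries, which were higher in BRAFp53 (12 and 12.3 CPM) than in p53 (5.82 and 6.11 CPM). Pcp4l1, a small calmodulin-binding protein, averaged 16.5 ± 1.06 CPM in p53 on and 1.65 ± 0.522 CPM in BRAFp53 on. Nmral1, an NADPH-binding protein, averaged 25.6 ± 5.72 CPM in p53 on and 4.35 ± 1.33 CPM in BRAFp53 on and lost its call in the difference of responses without BRAFp53 off replicate 2, BRAFp53 on replicate 2, either p53 off replicate or p53 on replicate 2 (edgeR adjusted p of 0.0558 to 0.136).

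A pair of the fallen genes was low in the BRAFp53 culture before induction. Rps4l (ENSMUSG00000063171, GRCm38 chromosome 6, 148354656 to 148355598), annotated as a transcribed processed pseudogene, had 28.2 and 30.2 CPM in the p53 off and 23.1 and 34.2 in the p53 on libraries. Rps4l had 2.28 and 1.32 CPM in the BRAFp53 off and 0.273 and 0.152 in the BRAFp53 on libraries (log2 difference -7.09, SE 0.31, edgeR adjusted p = 3.31e-08). The off libraries alone differed by a log2 value of -4.02, and reads of its near-identical parent gene could have been split with it in counting, so its level is uncertain. Naaladl1, a peptidase of the ileal brush border, had 79.3 and 85.8 CPM in the p53 off and 85.9 and 85.7 in the p53 on libraries. Naaladl1 had 22.5 and 21.5 CPM in the BRAFp53 off and 8.19 and 11.8 in the BRAFp53 on libraries (log2 difference -3.10, SE 0.19, edgeR adjusted p = 4.98e-07). Of this difference, a log2 value of -1.90 was present in the off libraries and -1.19 was the difference of responses, whose call was lost without BRAFp53 off replicate 1, BRAFp53 on replicate 1, p53 off replicate 1 or either p53 on replicate (edgeR adjusted p of 0.0545 to 0.067).

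In the main edgeR fit, the feedback regulators of ERK signalling were the signalling list with the most genes that rose. By DESeq2 or with no filter on low counts, the ERK-induced transcription factors had more, 7 or 6 against 5. Without BRAFp53 off replicate 2, the EGF ligands and receptors had more, 3 against 2. Of 10 tested, 5 rose, none fell, and the median log2 difference in the direct comparison was 1.34, against -0.01 over all genes tested. List counts here and below are to be set beside the shares over all genes tested. In both tests 2.7% rose and 1.54% fell, and in the direct comparison 7.76% were higher and 5.55% lower. Dusp6 (ENSMUSG00000019960, GRCm38 chromosome 10, 99263231 to 99267489), the cytoplasmic phosphatase of ERK, had 11.9 and 13.9 CPM in the p53 off and 22.7 and 16.5 in the p53 on libraries. Dusp6 had 22.7 and 24.2 CPM in the BRAFp53 off and 81.3 and 93.8 in the BRAFp53 on libraries. Both BRAFp53 on libraries were above all others (log2 difference 2.16, SE 0.17, edgeR adjusted p = 2.93e-06), and p53 off was the lowest group. Dusp5, the nuclear ERK phosphatase, had 16.3 and 16.7 CPM in the p53 off and 15 and 13.5 in the p53 on libraries. Dusp5 had 14.8 and 13 CPM in the BRAFp53 off and 39.9 and 45.8 in the BRAFp53 on libraries, with all 6 other libraries in a narrow range (log2 difference 1.59, SE 0.17, edgeR adjusted p = 3.02e-05). Dusp6 and Dusp5 kept both calls without each library in turn. Spry4, an adaptor that blocks RAS and RAF activation, had 1.26 and 1.21 CPM in the p53 off and 0.815 and 1.36 in the p53 on libraries. Spry4 had 1.61 and 0.747 CPM in the BRAFp53 off and 5.03 and 6.18 in the BRAFp53 on libraries (log2 difference 2.37, SE 0.39, edgeR adjusted p = 0.0011), and its call in the difference of responses was lost without BRAFp53 off replicate 2, BRAFp53 on replicate 2, p53 off replicate 1 or p53 on replicate 1 (edgeR adjusted p of 0.0563 to 0.1). Errfi1, an inhibitor of the EGF receptor kinase, had 17 and 22.8 CPM in the p53 off and 26.2 and 25.7 in the p53 on libraries. Errfi1 had 26.1 and 23.3 CPM in the BRAFp53 off and 57 and 70.2 in the BRAFp53 on libraries (log2 difference 1.29, SE 0.15, edgeR adjusted p = 8.52e-05), and its call was lost without BRAFp53 off replicate 2, BRAFp53 on replicate 2, p53 off replicate 2 or either p53 on replicate (edgeR adjusted p of 0.0685 to 0.107). The Errfi1 call was also lost with the block nested in culture. Spry1 was the fifth gene. The group's count was 2 without BRAFp53 off replicate 2 and 3 without BRAFp53 on replicate 2, either p53 off replicate or either p53 on replicate.

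In the RAF cascade itself, 1 of 14 genes rose (7.14%, against 2.7% of all genes tested) and none fell, with a median log2 difference of 0.12. That gene was Hras, 1 of the RAS GTPases, with 26.2 and 24.3 CPM in the p53 off and 20.8 and 22.3 in the p53 on libraries. Hras had 19 and 23.2 CPM in the BRAFp53 off and 31.5 and 36.3 in the BRAFp53 on libraries (log2 difference 0.65, SE 0.14, edgeR adjusted p = 0.00778). Its difference of responses did not pass without BRAFp53 off replicate 1, BRAFp53 on replicate 2, p53 off replicate 1 or either p53 on replicate (edgeR adjusted p of 0.0574 to 0.109). Its direct comparison did not pass without BRAFp53 on replicate 2 or p53 on replicate 1 (edgeR adjusted p of 0.0793 to 0.0979), and the count was 0 without BRAFp53 off replicate 1, BRAFp53 on replicate 2, p53 off replicate 1 or either p53 on replicate. Other settings called 3 by DESeq2 and 2 with no filter on low counts, with a minimum average log2 CPM of 1, by limma-voom or from the 8 libraries alone. Throughout, the fit with no filter took each gene's spread from the trend and not from its own replicates. Of 19 ERK-induced transcription factors, 11 passed as higher and 1 as lower in the direct comparison, against 7.76% and 5.55% of all genes tested. In both tests 2 rose (10.5%, against 2.7%) and 1 fell (5.26%, against 1.54%). Atf3, a stress-induced leucine zipper factor, had 2.84 and 3.2 CPM in the p53 off and 4.13 and 1.93 in the p53 on libraries. Atf3 had 3.11 and 3.35 CPM in the BRAFp53 off and 13.7 and 14.9 in the BRAFp53 on libraries (log2 difference 2.23, SE 0.36, edgeR adjusted p = 0.000934), and its difference of responses did not pass without either BRAFp53 off replicate, BRAFp53 on replicate 2, either p53 off replicate or p53 on replicate 2 (edgeR adjusted p of 0.0562 to 0.0901). The other gene that rose was Jund, a JUN family member. Egr1, the zinc finger factor that ERK induces within minutes in many cells, was lower, with 6.24 and 5.93 CPM in the p53 off and 8.84 and 9.35 in the p53 on libraries. Egr1 had 8.12 and 7.79 CPM in the BRAFp53 off and 5.34 and 5.88 in the BRAFp53 on libraries (log2 difference -0.70, SE 0.17, edgeR adjusted p = 0.0158). Its difference of responses did not pass without any 1 of the 8 libraries (edgeR adjusted p of 0.0621 to 0.0859), and its direct comparison did not pass without either BRAFp53 on replicate or either p53 on replicate (edgeR adjusted p of 0.0666 to 0.109). The count of risen factors was 0 without BRAFp53 off replicate 2, BRAFp53 on replicate 2, p53 off replicate 1 or p53 on replicate 2 and 1 without BRAFp53 off replicate 1. It was 7 by DESeq2, 6 with no filter on low counts and 4 with a minimum average log2 CPM of 1 or from the 8 libraries alone, and Egr1 lost its call with the block nested in culture.

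Of 11 genes of EGF receptor ligands and receptors, 4 rose and none fell, 3 of them ligands. Areg, the ligand amphiregulin (ENSMUSG00000029378, GRCm38 chromosome 5, 91139599 to 91148432), had 5.42 and 5.44 CPM in the p53 off and 5.37 and 4.22 in the p53 on libraries. Areg had 5.54 and 4.7 CPM in the BRAFp53 off and 31.5 and 36.5 in the BRAFp53 on libraries, close together in the 6 other libraries (log2 difference 2.82, SE 0.20, edgeR adjusted p = 1.51e-06). Epha2, an ephrin receptor kinase placed in the same list, had 8.69 and 10.6 CPM in the p53 off and 9.58 and 6.71 in the p53 on libraries. Epha2 had 8.23 and 8.77 CPM in the BRAFp53 off and 27 and 30.8 in the BRAFp53 on libraries (log2 difference 1.82, SE 0.20, edgeR adjusted p = 5.66e-05). Both kept both calls without each library in turn. Btc, the ligand betacellulin, and Tgfa also rose, by fitted log2 values of 1.19 and 0.71 in the direct comparison. Btc lost its call in the difference of responses without BRAFp53 off replicate 1, BRAFp53 on replicate 2, p53 off replicate 1 or either p53 on replicate (edgeR adjusted p of 0.0599 to 0.0827), and Tgfa without any 1 of the 8 libraries (edgeR adjusted p of 0.0943 to 0.158). Tgfa also lost its call with the replicate block and with the block nested in culture. The count was 2 without BRAFp53 off replicate 1, BRAFp53 on replicate 2 or either p53 on replicate.

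**Figure D3:**
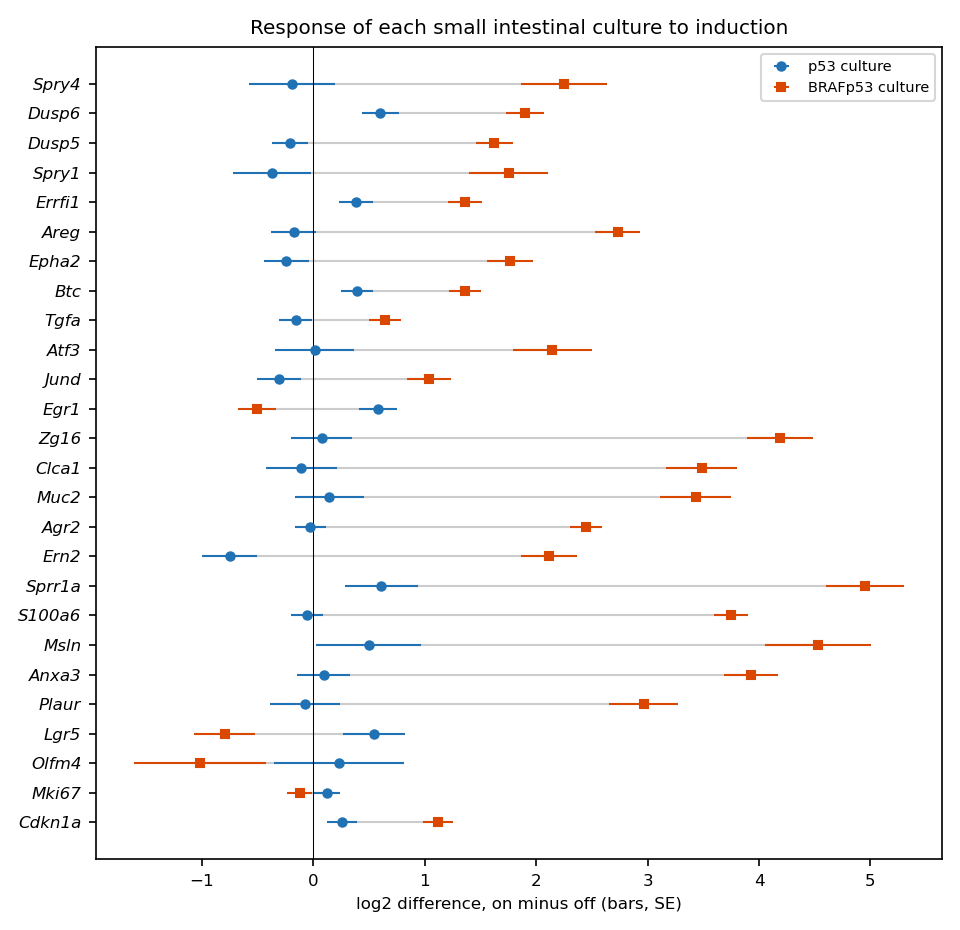
Log2 difference between on and off libraries (x axis) in the p53 culture (blue circles) and the BRAFp53 culture (orange squares) for 26 named genes, with bars of 1 SE. For Dusp6 the values were 0.60 in the p53 culture and 1.90 in the BRAFp53 culture, for Areg -0.18 and 2.73, and for Lgr5 0.55 and -0.79.

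Goblet cell genes were the group with the largest share that rose. Of 15 tested, 11 rose and none fell, 10 of them whichever library was left out, and the median log2 difference was 2.22. Muc2 (ENSMUSG00000025515, GRCm38 chromosome 7, 141690340 to 141754693), the gel-forming mucin of goblet cells, had 7.89 and 6.31 CPM in the p53 off and 7.05 and 8.67 in the p53 on libraries. Muc2 had 10.1 and 7.14 CPM in the BRAFp53 off and 68.6 and 118 in the BRAFp53 on libraries (log2 difference 3.57, SE 0.32, edgeR adjusted p = 9.73e-06). Zg16 (ENSMUSG00000049350, GRCm38 chromosome 7, 127050156 to 127087328), a lectin of the mucus layer, had 10.003 and 8.13 CPM in the p53 off and 10.8 and 8.32 in the p53 on libraries. Zg16 had 9.52 and 8.08 CPM in the BRAFp53 off and 133 and 188 in the BRAFp53 on libraries (log2 difference 4.07, SE 0.29, edgeR adjusted p = 1.51e-06). In both genes the BRAFp53 on replicates were above the 6 others, and replicate 2 was the higher. In bulk RNA, fewer cells of a type and less RNA per cell cannot be told apart, nor can more cells and more RNA per cell. Agr2, a disulfide isomerase needed to fold MUC2, had 92.8 and 90.3 CPM in the p53 off and 81 and 98.7 in the p53 on libraries. Agr2 had 108 and 122 CPM in the BRAFp53 off and 635 and 619 in the BRAFp53 on libraries (log2 difference 2.80, SE 0.15, edgeR adjusted p = 1.23e-07). Clca1, a secreted goblet cell protease, averaged 3.09 ± 0.433 CPM in p53 on and 39 ± 9.69 CPM in BRAFp53 on (SD, n = 2), and Ern2, the endoplasmic reticulum stress sensor of goblet cells, averaged 5.34 ± 0.331 CPM in p53 on and 33.5 ± 10.3 CPM in BRAFp53 on. The summed level of the goblet list was 1865 and 2126 CPM in BRAFp53 on and 440 to 652 CPM in the other 6 libraries. Ramp1 was the 1 risen member not kept, with levels of at most 2.33 CPM, and its difference of responses did not pass without either BRAFp53 off replicate, either BRAFp53 on replicate, p53 off replicate 1 or either p53 on replicate (edgeR adjusted p of 0.0717 to 0.492).

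Among 6 mucins tested, 3 rose and none fell. Besides Muc2, Muc3, a membrane mucin of enterocytes, had 31 and 35.3 CPM in the p53 off and 47.8 and 41.3 in the p53 on libraries. Muc3 had 41.7 and 47.1 CPM in the BRAFp53 off and 324 and 468 in the BRAFp53 on libraries (log2 difference 3.15, SE 0.27, edgeR adjusted p = 5.19e-06), well above all other libraries. Muc13, another membrane mucin, had 447 and 496 CPM in the p53 off and 494 and 450.4 in the p53 on libraries. Muc13 had 531 and 456 CPM in the BRAFp53 off and 773 and 799 in the BRAFp53 on libraries (log2 difference 0.74, SE 0.11, edgeR adjusted p = 0.000678), and its call in the difference of responses was lost without BRAFp53 off replicate 2, either BRAFp53 on replicate, p53 off replicate 2 or either p53 on replicate (edgeR adjusted p of 0.0565 to 0.124). Muc4, Muc6 and Muc20 did not pass.

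Genes of fetal and regenerating epithelium had a median log2 difference of 3.24 in the direct comparison, or 2.26 with the 2 members at 0 counts in an on group set at their bound of 3 counts. Of 20 tested, 14 were higher in the direct comparison, against 7.76% of all genes tested. In both tests 10 rose (50%, against 2.7%) and none fell, and 7 of the 10 held whichever library was left out. Besides Sprr1a and S100a6, Anxa3, an annexin, had 3.05 and 2.73 CPM in the p53 off and 3.45 and 2.69 in the p53 on libraries. Anxa3 had 2.85 and 2.6 CPM in the BRAFp53 off and 38.4 and 44.6 in the BRAFp53 on libraries (log2 difference 3.75, SE 0.24, edgeR adjusted p = 6.05e-07). Plaur (ENSMUSG00000046223, GRCm38 chromosome 7, 24462484 to 24475968), the urokinase receptor, had 3.0 and 2.2 CPM in the p53 off and 2.75 and 2.19 in the p53 on libraries. Plaur had 3.68 and 3.31 CPM in the BRAFp53 off and 20.4 and 34.2 in the BRAFp53 on libraries (log2 difference 3.46, SE 0.32, edgeR adjusted p = 1.02e-05). Msln, the surface protein mesothelin, had 1.08 and 0.325 CPM in the p53 off and 1.37 and 0.591 in the p53 on libraries. Msln had 0.619 and 0.676 CPM in the BRAFp53 off and 16.4 and 13.6 in the BRAFp53 on libraries (log2 difference 3.92, SE 0.45, edgeR adjusted p = 7.18e-05). Each was high in both BRAFp53 on libraries and low in the other 6. Ly6a, the surface antigen Sca-1 that marks repairing epithelium, had 0.118 and 0.177 CPM in the p53 off and 0.553 and 0.226 in the p53 on libraries. Ly6a had 0.566 and 0.356 CPM in the BRAFp53 off and 5.81 and 7.69 in the BRAFp53 on libraries (log2 difference 4.08, SE 0.36, edgeR adjusted p = 7.85e-06), but its difference of responses did not pass without either BRAFp53 off replicate, BRAFp53 on replicate 2, either p53 off replicate or p53 on replicate 2 (edgeR adjusted p of 0.0545 to 0.247). The Ly6a call was also lost by limma-voom, with the replicate block and with the block nested in culture.

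Of 13 genes linked to gastric epithelium or serrated lesions, 2 rose, Anxa10 and Tm4sf4, and none fell. Both held whichever library was left out, and 5 were called as higher with no filter on low counts. Ctse, the gastric protease cathepsin E, was at 0 counts in both p53 on libraries and at least 45.1-fold higher in BRAFp53 on, and Vsig1, a gastric junction protein, was at least 17.05-fold higher by the same floor of 3 counts. Both passed in the direct comparison alone and were picked after their values were seen. Pdx1, the duodenal and antral homeobox factor, had 3.91 and 3.73 CPM in the p53 off and 2.37 and 2.35 in the p53 on libraries. Pdx1 had 6.83 and 7.56 CPM in the BRAFp53 off and 10.8 and 11 in the BRAFp53 on libraries (log2 difference 2.21, SE 0.48, edgeR adjusted p = 0.00804), and it was also higher in the BRAFp53 off libraries without passing there. The Pdx1 call was lost without either p53 on replicate (edgeR adjusted p of 0.0633 to 0.0651). Of 16 YAP target genes, 2 rose and none fell, F3 and Wwc1. F3, tissue factor, had 1.79 and 3.04 CPM in the p53 off and 2.93 and 1.62 in the p53 on libraries. F3 had 2.64 and 2.78 CPM in the BRAFp53 off and 9.16 and 10.9 in the BRAFp53 on libraries (log2 difference 2.13, SE 0.29, edgeR adjusted p = 0.000292), and its call in the difference of responses was lost without BRAFp53 off replicate 1, BRAFp53 on replicate 2, p53 off replicate 2 or p53 on replicate 2 (edgeR adjusted p of 0.0545 to 0.0712). The YAP count was 0 without BRAFp53 off replicate 1, BRAFp53 on replicate 2 or p53 off replicate 2 and 1 without BRAFp53 off replicate 2, p53 off replicate 1 or either p53 on replicate. It was 4 by DESeq2 and 1 with the block nested in culture.

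Enterocyte genes moved in both directions. Of 40 tested, 12 rose and 6 fell, and 4 and 4 of these held whichever library was left out. Beside Ada and Alpi, Prap1, a secreted proline-rich protein of the SI, had 379 and 431 CPM in the p53 off and 497 and 406 in the p53 on libraries. Prap1 had 553 and 523 CPM in the BRAFp53 off and 1507 and 1656 in the BRAFp53 on libraries (log2 difference 1.81, SE 0.13, edgeR adjusted p = 1.35e-06). Enpep, the brush border aminopeptidase A, fell with Lct, with 150.4 and 181 CPM in the p53 off and 171 and 159 in the p53 on libraries. Enpep had 154 and 119 CPM in the BRAFp53 off and 42.5 and 42.6 in the BRAFp53 on libraries (log2 difference -1.96, SE 0.18, edgeR adjusted p = 1.02e-05). In both genes the BRAFp53 on libraries stood apart from the other 6. Tmigd1, a cell adhesion protein of mature enterocytes, averaged 0.854 ± 0.0279 CPM in p53 on and 4.74 ± 1.06 CPM in BRAFp53 on (SD, n = 2), and its difference of responses did not pass without either BRAFp53 off replicate, p53 off replicate 2 or either p53 on replicate (edgeR adjusted p of 0.0699 to 0.459). The others that rose included the apolipoprotein genes Apoa1, Apoa4 and Apob and the retinol carrier Rbp2, and those that fell included the peptidase genes Dpp4 and Mep1a. The count of risen genes was 4 without BRAFp53 off replicate 2 and 5 without BRAFp53 on replicate 2, p53 off replicate 2 or p53 on replicate 2 and 7 without BRAFp53 off replicate 1, and 7 with the block nested in culture.

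Of 21 enteroendocrine genes, 2 rose and 1 fell. Ghrl, the hormone ghrelin, had 4.45 and 7.1 CPM in the p53 off and 7.95 and 7.19 in the p53 on libraries. Ghrl had 7.56 and 6.9 CPM in the BRAFp53 off and 25.2 and 25.3 in the BRAFp53 on libraries (log2 difference 1.74, SE 0.23, edgeR adjusted p = 0.000233), and its difference of responses did not pass without either BRAFp53 off replicate, either BRAFp53 on replicate, p53 off replicate 2 or either p53 on replicate (edgeR adjusted p of 0.0573 to 0.105). Sct, the hormone secretin, had 3.39 and 4.32 CPM in the p53 off and 4.31 and 3.6 in the p53 on libraries. Sct had 4.02 and 5.09 CPM in the BRAFp53 off and 14.1 and 12.1 in the BRAFp53 on libraries (log2 difference 1.73, SE 0.21, edgeR adjusted p = 0.000113), and its call in the difference of responses was lost without BRAFp53 off replicate 1, p53 off replicate 2 or p53 on replicate 2 (edgeR adjusted p of 0.0519 to 0.0591). Sst, the hormone somatostatin, fell to 0 counts in BRAFp53 on replicate 1 and 5 counts in replicate 2, from 2.3 and 2.99 CPM in p53 on and 1.45 and 2.67 CPM in BRAFp53 off. Chgb, a granin of hormone granules, was higher only in the direct comparison (log2 difference 1.26, SE 0.30, edgeR adjusted p = 0.0136), and its off libraries were already at 125 and 143 CPM in BRAFp53 against 54.1 and 83.6 CPM in p53. The Chgb call was lost without BRAFp53 on replicate 2 or p53 on replicate 2 (edgeR adjusted p of 0.0743 to 0.128). The count of risen genes was 0 without BRAFp53 off replicate 1, p53 off replicate 2 or p53 on replicate 2 and 1 without BRAFp53 off replicate 2, either BRAFp53 on replicate or p53 on replicate 1. Of the left-out fits, the Sst call was kept only without BRAFp53 off replicate 1, and it was lost by limma-voom. With no filter on low counts, 4 enteroendocrine genes were called as higher and 2 as lower.

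Of 19 Paneth cell genes, Defa24, a defensin, was the 1 that rose (5.26%, against 2.7% of all genes tested) and none fell. In the direct comparison 5 were higher and 2 lower. In 10 of the 19 both BRAFp53 on libraries were above both p53 on libraries, and in 4 below. Over all genes tested these shares were 28.2% and 29.9%. The summed level of the Paneth list was 427 and 302 CPM in BRAFp53 on and 207 to 290 CPM in the other groups. Defa24 had 63.7 and 58.8 CPM in the p53 off and 72.9 and 76.3 in the p53 on libraries. Defa24 had 55.3 and 63.2 CPM in the BRAFp53 off and 179.8 and 115 in the BRAFp53 on libraries (log2 difference 0.98, SE 0.17, edgeR adjusted p = 0.00159), and its difference of responses did not pass without BRAFp53 off replicate 1, BRAFp53 on replicate 1, either p53 off replicate or either p53 on replicate (edgeR adjusted p of 0.0508 to 0.104). The count of Paneth cell genes called as higher was 2 with no filter on low counts or by DESeq2 and 0 with the block nested in culture, and 1 was called as lower with no filter on low counts or by DESeq2. Defensin genes are near-identical copies, so their split of reads is uncertain.

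Stem cell and Wnt target genes gave 0 calls in both tests of 25 tested by edgeR and by limma-voom, with 2 at an unadjusted p under 0.05 in both and 1 by DESeq2. Their median log2 difference in the direct comparison was -0.29, 8 of the 25 were above 0, and in 16 of the 25 both BRAFp53 on libraries were below both p53 on libraries, against 29.9% of all genes tested. The edgeR calls in both tests were 2 lower from the 8 libraries alone, 2 lower and 1 higher with no filter on low counts, and 1 higher without p53 off replicate 2 or with a minimum average log2 CPM of 1. Lgr5, the Wnt co-receptor that marks crypt stem cells, had 8.29 and 10.1 CPM in the p53 off and 15.8 and 11 in the p53 on libraries. Lgr5 had 25.6 and 27.9 CPM in the BRAFp53 off and 18.4 and 12.5 in the BRAFp53 on libraries. It was higher in the BRAFp53 culture before induction (log2 difference 1.54, SE 0.28, edgeR adjusted p = 0.0404), did not pass between the on libraries (log2 difference 0.20, SE 0.27, edgeR adjusted p = 0.713), and its difference of responses missed the threshold (log2 difference -1.34, SE 0.39, edgeR adjusted p = 0.0748). The Lgr5 call between off libraries was lost without either BRAFp53 off replicate or either p53 off replicate (edgeR adjusted p of 0.144 to 0.375). Olfm4, a secreted stem cell marker, had 138 and 165 CPM in the p53 off and 175 and 180.0 in the p53 on libraries. Olfm4 had 143 and 235 CPM in the BRAFp53 off and 114 and 72.4 in the BRAFp53 on libraries. Both BRAFp53 on libraries of Olfm4 were below the other 6, but the difference did not pass the test (log2 difference -0.93, SE 0.59, edgeR adjusted p = 0.35). Olfm4 was 1 of the 2 genes called as lower from the 8 libraries alone. Prom1, a membrane protein of crypt cells, passed in the difference of responses alone (log2 difference -0.89, SE 0.21, edgeR adjusted p = 0.0309), a call lost without either BRAFp53 off replicate, either BRAFp53 on replicate, either p53 off replicate or p53 on replicate 1 (edgeR adjusted p of 0.0593 to 0.146).

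Tuft cell genes gave 0 calls in both edgeR tests of 13, with 2 at an unadjusted p under 0.05 in both and 0 by DESeq2, and edgeR called 1 as lower from the 8 libraries alone and 2 with no filter on low counts. The median log2 difference of the tuft list in the direct comparison was -0.97, the lowest of the lists, 3 of the 13 were above 0, and 2 passed as lower there, Alox5ap and Ltc4s, both of leukotriene synthesis and picked after their values were seen. In 7 of the 13 both BRAFp53 on libraries were below both p53 on libraries, against 29.9% of all genes tested. Genes of region along the gut gave 0 of 14 by edgeR, with 6 at an unadjusted p under 0.05 in both, 1 by DESeq2 and 1 by limma-voom, and edgeR called 1 as higher without BRAFp53 off replicate 1 or p53 off replicate 1. In the direct comparison their median log2 difference was 0.53, with 4 higher and 2 lower, against 7.76% and 5.55% of all genes tested. edgeR called 4 as higher and 1 as lower in both tests with no filter on low counts, 2 as higher from the 8 libraries alone and 1 with a minimum average log2 CPM of 1.

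Among p53 target genes, 1 of 35 rose (2.86%, against 2.7% of all genes tested) and none fell. In the direct comparison 7 were higher and 1 lower, against 7.76% and 5.55% of all genes tested. The gene that rose was Cdkn1a (ENSMUSG00000023067, GRCm38 chromosome 17, 29090976 to 29100727), which encodes the CDK inhibitor p21, with 163 and 149 CPM in the p53 off and 204 and 171 in the p53 on libraries. Cdkn1a had 195 and 160.0 CPM in the BRAFp53 off and 369 and 399.9 in the BRAFp53 on libraries. Both BRAFp53 on libraries were above all others, and the BRAFp53 off range overlapped both p53 groups (log2 difference 1.04, SE 0.14, edgeR adjusted p = 0.000202). The call in the difference of responses was lost without BRAFp53 off replicate 2, BRAFp53 on replicate 2, p53 off replicate 1 or p53 on replicate 2 (edgeR adjusted p of 0.0834 to 0.101), and the count of the list was 0 without BRAFp53 off replicate 2, BRAFp53 on replicate 2 or p53 on replicate 2 and 2 without BRAFp53 off replicate 1. The count of p53 targets called as higher was 5 by DESeq2, 4 with no filter on low counts, 3 with a minimum average log2 CPM of 1 and 2 by limma-voom or from the 8 libraries alone, and 1 was called as lower with no filter on low counts or by DESeq2. Cdkn1a was also the 1 gene that rose of 10 CDK inhibitors and D cyclins, where the count was 3 with a minimum average log2 CPM of 1, by DESeq2 or from the 8 libraries alone and 2 with no filter on low counts or by limma-voom. Cdkn2b, which encodes the INK4 inhibitor p15, had 34.8 and 35 CPM in the p53 off and 36.2 and 26.8 in the p53 on libraries. Cdkn2b had 40.8 and 30.3 CPM in the BRAFp53 off and 69.9 and 65.8 in the BRAFp53 on libraries and passed in the direct comparison alone (log2 difference 1.11, SE 0.21, edgeR adjusted p = 0.00356), a call lost without p53 on replicate 2 (edgeR adjusted p = 0.0515).

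Proliferation genes gave 0 calls in both edgeR tests of 30, with 1 at an unadjusted p under 0.05 in both and 0 by DESeq2, and edgeR called 1 as lower with no filter on low counts. Their median log2 difference in the direct comparison was -0.26, and 3 of the 30 were above 0. In 18 of the 30 both BRAFp53 on libraries were below both p53 on libraries, against 29.9% of all genes tested, and in 0 above. A single gene passed as lower in the direct comparison. Mki67, the nuclear marker of cycling cells, had 235 and 225 CPM in the p53 off and 237 and 264 in the p53 on libraries. Mki67 had 219.7 and 242 CPM in the BRAFp53 off and 206 and 217 in the BRAFp53 on libraries (log2 difference -0.24, SE 0.12, edgeR adjusted p = 0.202). Top2a, topoisomerase 2-alpha, had 301 and 322 CPM in the p53 off and 304 and 335 in the p53 on libraries. Top2a had 293 and 320.1 CPM in the BRAFp53 off and 259.8 and 210.3 in the BRAFp53 on libraries, lowest in the BRAFp53 on libraries without passing the test (log2 difference -0.44, SE 0.17, edgeR adjusted p = 0.116).

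Basement membrane and integrin genes rose in 6 of 19 cases and none fell, with 3 of the 6 held whichever library was left out. Besides Nid1, Itga5, the fibronectin receptor subunit, had 2.37 and 1.61 CPM in the p53 off and 1.06 and 1.65 in the p53 on libraries. Itga5 had 1.15 and 1.19 CPM in the BRAFp53 off and 5.74 and 5.24 in the BRAFp53 on libraries (log2 difference 2.02, SE 0.36, edgeR adjusted p = 0.00199). Lamb3, the beta-3 chain of laminin-332, had 20.8 and 23.2 CPM in the p53 off and 27.8 and 19.7 in the p53 on libraries. Lamb3 had 44.1 and 38.9 CPM in the BRAFp53 off and 86.9 and 102 in the BRAFp53 on libraries (log2 difference 1.99, SE 0.19, edgeR adjusted p = 1.55e-05), with BRAFp53 off above both p53 groups, and its difference of responses did not pass without either BRAFp53 off replicate, BRAFp53 on replicate 2, either p53 off replicate or p53 on replicate 2 (edgeR adjusted p of 0.0642 to 0.153). Itgb4 and Itga3, laminin receptor subunits, rose by 0.88 and 0.87 on the log2 scale, and their difference of responses did not pass without BRAFp53 on replicate 2 (edgeR adjusted p = 0.0528) and without BRAFp53 off replicate 2, BRAFp53 on replicate 2, p53 off replicate 2 or either p53 on replicate (edgeR adjusted p of 0.103 to 0.177), respectively. Without BRAFp53 on replicate 2 the count was 3.

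Of 9 keratins, 6 rose and none fell, with 3 held whichever library was left out. Krt23 had 8.85 and 13.7 CPM in the p53 off and 15.1 and 13.7 in the p53 on libraries. Krt23 had 14.8 and 13.2 CPM in the BRAFp53 off and 47.9 and 44.8 in the BRAFp53 on libraries (log2 difference 1.68, SE 0.19, edgeR adjusted p = 5.71e-05). The simple-epithelium keratins Krt18, Krt19 and Krt8 rose by 0.84, 0.61 and 0.57 on the log2 scale, with Krt18 at 525 and 504 CPM in p53 on and 912 and 929 CPM in BRAFp53 on. Krt8 lost its call in the difference of responses without BRAFp53 off replicate 2, BRAFp53 on replicate 2, p53 off replicate 1 or either p53 on replicate (edgeR adjusted p of 0.0647 to 0.0752). The keratin count was 3 without BRAFp53 off replicate 2, BRAFp53 on replicate 2 or p53 on replicate 2.

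Of 20 claudin and junction genes, 2 rose, Cldn4 and Cldn3, and none fell. Cldn4, a tight junction claudin, had 7.89 and 9.46 CPM in the p53 off and 12.5 and 8.72 in the p53 on libraries. Cldn4 had 9.03 and 9.09 CPM in the BRAFp53 off and 74.3 and 62.7 in the BRAFp53 on libraries and held whichever library was left out (log2 difference 2.68, SE 0.20, edgeR adjusted p = 2.12e-06), while the count was 1 without BRAFp53 off replicate 2, BRAFp53 on replicate 2, p53 off replicate 2 or either p53 on replicate. It was 6 by DESeq2, 5 with no filter on low counts, with a minimum average log2 CPM of 1 or from the 8 libraries alone and 1 with the replicate block or with the block nested in culture. Of 11 plasminogen system and metalloproteinase genes, Plaur and the serpin Serpinb5 rose, and none fell, and the count was 1 without BRAFp53 off replicate 2, BRAFp53 on replicate 2 or p53 on replicate 1. Of 3 genes tested that are used to follow epithelial to mesenchymal transition, the repressor gene Snai2 fell, from 0.408 and 0.678 CPM in p53 on to 0 counts in both BRAFp53 on libraries, at least 10.8-fold lower by the floor of 3 counts. Of the left-out fits, the Snai2 call was kept only without p53 off replicate 2, and it was lost with the block nested in culture. DESeq2 gave no adjusted p, and Snai2 was below an average log2 CPM of 1. Vim, vimentin, passed in the direct comparison alone (log2 difference 1.94, SE 0.39, edgeR adjusted p = 0.00456), a call lost without p53 on replicate 1 (edgeR adjusted p = 0.0544).

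Among 14 chemokine and cytokine genes, 3 rose and none fell. Cxcl16, a membrane-bound chemokine, had 2.16 and 2.86 CPM in the p53 off and 3.76 and 2.17 in the p53 on libraries. Cxcl16 had 4.55 and 3.36 CPM in the BRAFp53 off and 29.2 and 30.8 in the BRAFp53 on libraries (log2 difference 3.33, SE 0.25, edgeR adjusted p = 2.01e-06). Ccl20, the ligand of CCR6, had 2.18 and 4.16 CPM in the p53 off and 2.08 and 3.02 in the p53 on libraries. Ccl20 had 4.57 and 6.32 CPM in the BRAFp53 off and 20.1 and 30.2 in the BRAFp53 on libraries (log2 difference 3.30, SE 0.35, edgeR adjusted p = 3.16e-05). Il1a, the alarmin interleukin-1 alpha, was at 0 counts in both p53 on libraries and at 1.62 and 2.51 CPM in BRAFp53 on, at least 43.1-fold higher by the floor of 3 counts, and its call in the difference of responses was lost without BRAFp53 on replicate 2 (edgeR adjusted p = 0.0598). DESeq2 gave Il1a no adjusted p for that difference, and it was below an average log2 CPM of 1. Of 20 interferon response and antigen presentation genes, Ifit1 and H2-D1 rose and none fell, and the count was 0 without BRAFp53 off replicate 2, BRAFp53 on replicate 2, p53 off replicate 2 or either p53 on replicate and 1 without BRAFp53 off replicate 1 or BRAFp53 on replicate 1. The count was 1 by limma-voom, and the count called as lower was 2 with no filter on low counts or by DESeq2 and 1 with a minimum average log2 CPM of 1, by limma-voom, from the 8 libraries alone, with the replicate block or with the block nested in culture.

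Of 21 cholesterol and fatty acid synthesis genes, 2 rose and none fell. Scd1, the stearoyl-CoA desaturase, had 433 and 434 CPM in the p53 off and 613 and 521 in the p53 on libraries. Scd1 had 487 and 426 CPM in the BRAFp53 off and 1242 and 1276 in the BRAFp53 on libraries and kept both calls without each library in turn (log2 difference 1.15, SE 0.12, edgeR adjusted p = 2.54e-05), and Elovl6, a fatty acid elongase, lost its call without any 1 of the 8 libraries, which left a count of 1, as did the block nested in culture. Glycolysis genes gave 0 calls in both edgeR tests of 18, with 4 at an unadjusted p under 0.05 in both, 3 by DESeq2 and 1 by limma-voom, and edgeR called 1 without BRAFp53 off replicate 1 or BRAFp53 on replicate 1 or with the block nested in culture, 2 with a minimum average log2 CPM of 1 and 3 from the 8 libraries alone or with no filter on low counts, all higher. In the direct comparison 6 of the 18 were higher, against 7.76% of all genes tested. Among them was Ldha, lactate dehydrogenase A, with 3876 and 4338 CPM in the p53 off and 4741 and 4623 in the p53 on libraries. Ldha had 4916 and 4395 CPM in the BRAFp53 off and 6379 and 5705 in the BRAFp53 on libraries (log2 difference 0.37, SE 0.09, edgeR adjusted p = 0.0183). The Ldha call was lost without BRAFp53 on replicate 1 or either p53 on replicate (edgeR adjusted p of 0.0842 to 0.129). Of 20 factors of intestinal identity, Klf4, a factor of differentiated and goblet cells, rose (5%, against 2.7% of all genes tested) and none fell. However, 1 was called as lower without BRAFp53 on replicate 2, and the count called as lower was 3 with no filter on low counts and 1 by limma-voom or from the 8 libraries alone. Klf4 itself had 16.9 and 17.2 CPM in the p53 off and 22 and 18.6 in the p53 on libraries. Klf4 had 13 and 13.6 CPM in the BRAFp53 off and 43.4 and 51.4 in the BRAFp53 on libraries (log2 difference 1.23, SE 0.16, edgeR adjusted p = 0.000191). Hnf4a, Cdx2 and Gata4 did not pass.

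**Figure D4:**
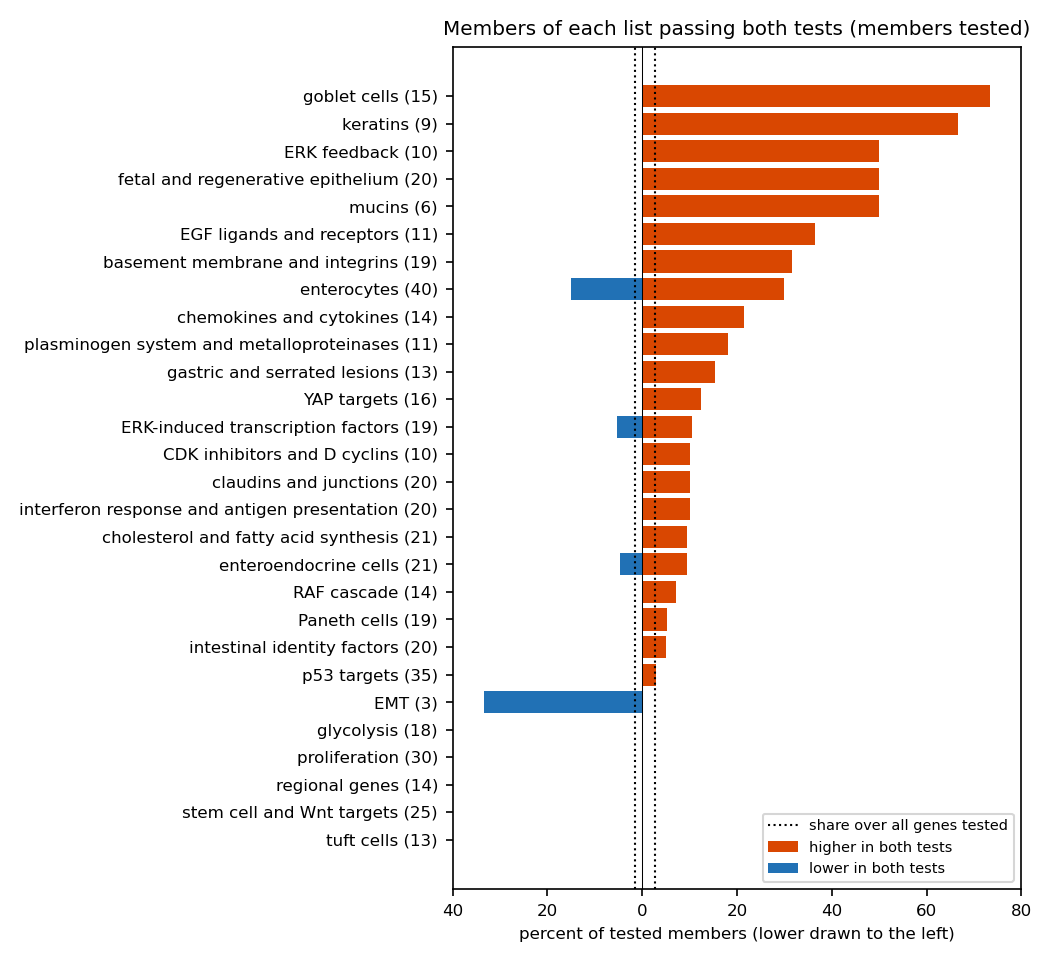
Percent of the tested members of each list, marker lists for contamination and sex left out, that passed both tests as higher (orange bars, to the right) or lower (blue bars, to the left) in BRAFp53 on, with the number tested in brackets and dotted lines at the shares over all genes tested, 2.7% and 1.54%. The longest bar is that of the goblet cell genes, 11 of 15, and enterocyte genes have bars on both sides, 12 higher and 6 lower of 40.

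Some genes called in the direct comparison separated the cultures before induction. Osr2, a zinc finger factor, was at 24.8 and 28.3 CPM in p53 off and 24 and 28.8 CPM in p53 on, against 1 count in each BRAFp53 off library and 5 and 7 counts in the BRAFp53 on libraries. Angptl4, a secreted inhibitor of lipoprotein lipase, had 22 and 23.6 CPM in the p53 off and 28.4 and 25.3 in the p53 on libraries. Angptl4 had 3.49 and 1.9 CPM in the BRAFp53 off and 4.14 and 1.52 in the BRAFp53 on libraries, low in all 4 libraries of the BRAFp53 culture. Igfbp4, an IGF-binding protein expressed in crypts, had 13.6 and 14.5 CPM in the p53 off and 15.2 and 11.6 in the p53 on libraries. Igfbp4 had 2.6 and 3.45 CPM in the BRAFp53 off and 3.63 and 3.12 in the BRAFp53 on libraries. These were lower in the BRAFp53 culture in both states, and none passed in the difference of responses.

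In the other direction, Acta1, skeletal alpha-actin, had 12.6 and 12.1 CPM in the p53 off and 12.1 and 17.1 in the p53 on libraries. Acta1 had 31.8 and 34 CPM in the BRAFp53 off and 44.8 and 43.7 in the BRAFp53 on libraries. Cap1, a regulator of actin turnover, had 91.9 and 108 CPM in the p53 off and 103 and 112 in the p53 on libraries. Cap1 had 241 and 205 CPM in the BRAFp53 off and 288 and 300.1 in the BRAFp53 on libraries, and its exons overlap those of Ppt1 on the other strand by up to 129 bases, with Ppt1 at 57.0 CPM in p53 on and 59.4 CPM in BRAFp53 on. Akr1e1, an aldo-keto reductase, had 16.4 and 21.3 CPM in the p53 off and 20.7 and 17.3 in the p53 on libraries. Akr1e1 had 50.7 and 42.6 CPM in the BRAFp53 off and 43.3 and 39.3 in the BRAFp53 on libraries. These 3 were higher in the BRAFp53 culture with or without induction, and the Akr1e1 call between off libraries was lost without p53 off replicate 1 (edgeR adjusted p = 0.0626). Sprr2a3, a small proline-rich protein, had 46.9 and 44.4 CPM in the p53 off and 113 and 67.8 in the p53 on libraries. Sprr2a3 had 126 and 91.7 CPM in the BRAFp53 off and 354 and 303 in the BRAFp53 on libraries, higher in the on than in the off libraries of both cultures, and the difference of responses did not pass (log2 difference 0.61, SE 0.29, edgeR adjusted p = 0.29). The Sprr2a3 call between off libraries was lost without BRAFp53 off replicate 1 or either p53 off replicate (edgeR adjusted p of 0.147 to 0.194).

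The same difference of responses was also compared with that of colon (COL) organoids of the same genotypes. The COL cultures received 3.5 µM 4-hydroxytamoxifen and gave RNA after 3 days, so tissue, dose and time cannot be told apart. In a joint fit of 24 libraries, 103 of 19673 genes (0.524%) passed, 62 with a larger value in SI (0.315%) and 41 with a larger value in COL (0.208%), and 53 of them also passed in the SI difference of responses. The share with a larger value in SI was 60.2% here and 46.5% of the 484 genes called by DESeq2. The count was 49 without BRAFp53 off replicate 1, 29 without BRAFp53 on replicate 2, 51 or 62 without p53 off replicate 1 or 2, and 36 without p53 on replicate 1 of the SI.

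Anxa3 rose from 2.72 ± 0.178 to 41.5 ± 4.38 CPM in the SI BRAFp53 culture and stood at 214 ± 0.598 and 567 ± 88.8 CPM in the COL culture off and on (tissue log2 difference 2.96, SE 0.41, edgeR adjusted p = 0.00387). Car2 was at 2909.8 ± 129 CPM in COL p53 off and 456 ± 29.6 CPM in COL BRAFp53 off, so the COL cultures were far apart before induction (tissue log2 difference 3.24, SE 0.46, edgeR adjusted p = 0.00412). Tm4sf4 reached 453 ± 103 CPM in COL BRAFp53 on from 60.2 ± 20.6 off, a smaller increase than in SI (tissue log2 difference 2.78, SE 0.49, edgeR adjusted p = 0.0168). These 3 genes kept the tissue call without each SI library in turn. The tissue call was lost for Ecm1 without BRAFp53 off replicate 1, BRAFp53 on replicate 2, p53 off replicate 1 or p53 on replicate 1 (edgeR adjusted p of 0.0817 to 0.0927), for Slc7a11 without BRAFp53 off replicate 2, BRAFp53 on replicate 2, p53 off replicate 2 or either p53 on replicate (edgeR adjusted p of 0.0611 to 0.0988) and for Nid1 without BRAFp53 off replicate 1, BRAFp53 on replicate 2, p53 off replicate 2 or either p53 on replicate (edgeR adjusted p of 0.0553 to 0.0811).

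Genes with a lower value in SI included Cyp2u1, a fatty acid hydroxylase of the cytochrome P450 family, with 123 and 133 CPM in the p53 off and 109 and 112 in the p53 on libraries. Cyp2u1 had 95.7 and 92.2 CPM in the BRAFp53 off and 29.3 and 26 in the BRAFp53 on libraries. In COL it was at 7.12 ± 0.173 CPM in BRAFp53 off and 4.02 ± 0.437 CPM in BRAFp53 on (tissue log2 difference -2.53, SE 0.36, edgeR adjusted p = 0.00387). Cox7a1, a subunit of cytochrome c oxidase, averaged 55.8 ± 8.06 CPM in p53 on and 27.7 ± 6.07 CPM in BRAFp53 on in SI (tissue log2 difference -2.22, SE 0.39, edgeR adjusted p = 0.0168), and its call in the SI difference of responses was lost without BRAFp53 on replicate 2 or p53 on replicate 1 (edgeR adjusted p = 0.0517). Pcp4l1 was at or near the floor in every COL group (at most 0.195 CPM), so its tissue value rests on a handful of COL counts.

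**Figure D5:**
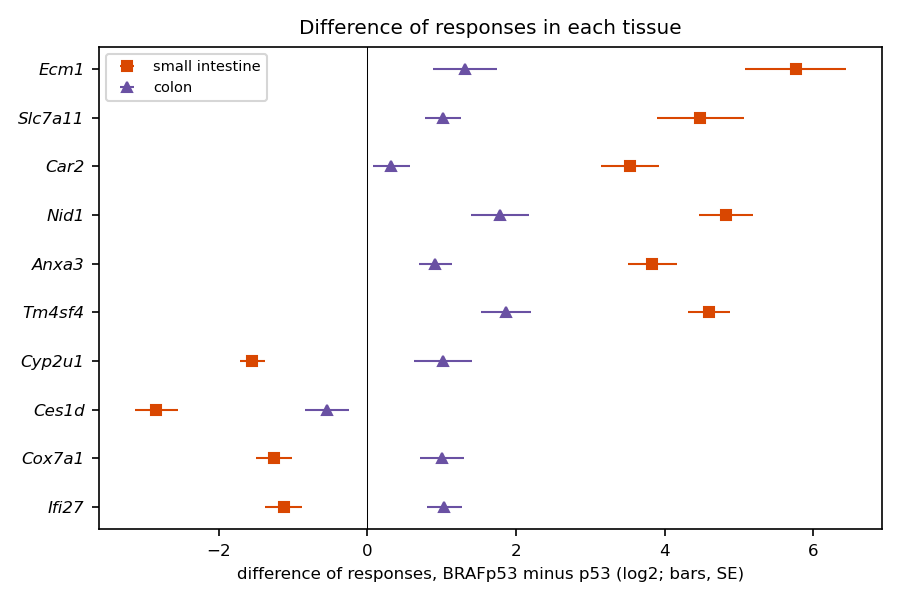
Difference of responses (BRAFp53 minus p53, log2, x axis) in SI (orange squares) and COL (purple triangles) for 10 named genes that passed the tissue difference, with bars of 1 SE. For Anxa3 the values were 3.84 in SI and 0.91 in COL, and for Cyp2u1 they were -1.55 and 1.02.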

How the data were processed

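RNA was sequenced from mouse SI and COL organoids, and the authors deposited 1 table of raw read counts per tissue, with 1 column per library. Per the submitters' processing notes, reads were trimmed with Trimmomatic 0.36 and aligned with STAR 2.5.2b to mm10, with mm9 also listed, and the study's methods name STAR for counting reads per gene. Whether strand was used in counting and which annotation release served are not given in the sources used here, so reads of a gene and of a partner on the other strand cannot be told apart. Of 45706 gene identifiers, 45143 were matched to GENCODE M21 (GRCm38) for names and positions. Replicates are separate libraries of 1 culture.

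The 12 SI libraries were fitted together with edgeR 4.0.16 in R 4.3.3 (filterByExpr, TMM scaling, 6 group means, quasi-likelihood F-test), with Benjamini-Hochberg adjustment over all 16856 genes tested and a threshold of 0.05. The 4 BRAF libraries entered the estimate of the spread, the scaling and the filter. SE is the log2 difference divided by the square root of F. The tissue difference was fitted on all 24 libraries with 19673 genes. Named genes were Braf and Trp53, up to 6 genes per list by the size of the direct difference among those passing both tests (filled by mean CPM), the 12 per direction with the largest direct difference among genes passing both tests averaging 3 or more in log2 CPM with separate on libraries, and up to 6 per direction from the off comparison, its overlap with the direct comparison and the tissue difference. A gene that this rule names is not reported here. The genes and lists were chosen with earlier results of these data known. Alternatives were RLE scaling, no filter, a minimum average log2 CPM of 1, a minimum absolute log2 difference of 1, DESeq2 1.42.0, limma-voom 3.58.1 (the study's methods name limma), the 8 libraries alone, replicate blocks, and each of the 8 libraries left out. On simulated counts of 16254 genes with 200 changed, the direct comparison called 67 of 100 genes changed by 1 on the log2 scale and 96 of 100 changed by 2, with 10 false calls, and the difference of responses called 46 and 94 of 100 with 10 false calls. Genes of low average count were not among those changed. The unchanged groups shared a mean per gene, and the spread was estimated from these data. Recovery at low counts, or between cultures that differ before induction, was thus not tested. Promoter windows came from RefSeq (GRCm38.p6). PCR duplicates were not marked by molecular identifiers, so the floor of 3 counts covers counting error only.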

Additional observations from a re-analysis of the deposited data

Results flagged for a closer look

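The responses to induction of the 2 cultures were compared by a test of the difference itself, and 735 genes passed it, so each named gene among them is listed here by its difference of responses (BRAFp53 minus p53, log2). The largest positive values were Ecm1 5.77, Akp3 5.04, Nid1 4.83, Tm4sf4 4.60, Anxa10 4.54, Slc7a11 4.48, Sprr1a 4.34, Ada 4.30, Zg16 4.11 and Msln 4.03. Next came Anxa3 3.84, S100a6 3.81, Clca1 3.59, Tmigd1 3.56, Car2 3.53, Enpp3 3.41, Muc2 3.29, Plaur 3.04, Areg 2.91, Ern2 2.87, Itga5 2.78, Muc3 2.73, Cxcl16 2.68 and Cldn4 2.62. Lower positive values were Ccl20 2.52, Ifit1 2.495, Agr2 2.48, Ly6a 2.45, Spry4 2.44, Atf3 2.13, Spry1 2.12, Epha2 2.01, F3 1.97, Alpi 1.86, Dusp5 1.83, Serpinb5 1.70, Klf4 1.58, Sct 1.49, Ghrl 1.41, Prap1 1.40, Krt23 1.37, Jund 1.35 and Dusp6 1.30. The smallest were Itgb4 1.09, Scd1 1.08, Lamb3 1.07, Defa24 1.03, Krt20 0.99, Errfi1 0.98, Btc 0.97, Wwc1 0.93, Hras 0.92, Itga3 0.91, Cdkn1a 0.86, Tgfa 0.80, H2-D1 0.75, Krt18 0.73, Krt19 0.70, Muc13 0.67, Krt7 0.64, Cldn3 0.63, Elovl6 0.61 and Krt8 0.57. Negative values were Ces1g -3.63, C4bp -3.58, Tnfsf10 -3.25, Rps4l -3.07, Nrg4 -2.93, Ces1d -2.84, Lct -2.73, Pcp4l1 -2.45, Reg3a -2.11 and Plbd1 -2.10, and closer to 0 Slc23a1 -1.89, Nmral1 -1.87, Enpep -1.68, Cyp2u1 -1.55, Cox7a1 -1.26, Naaladl1 -1.19, Ifi27 -1.13, Egr1 -1.08 and Prom1 -0.89.

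For genes near the floor of 3 counts in some group the fitted value depends on the prior count and gives no bound. These were Il1a 11.97, Ramp1 4.98, Sst -5.67 and Snai2 -9.02.

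The difference of responses also differed between tissues, and 103 genes passed the test of that difference (SI minus COL, log2). The named genes with a larger value in SI were Ecm1 4.49, Slc7a11 3.50, Car2 3.24, Nid1 3.08, Anxa3 2.96 and Tm4sf4 2.78. Those with a larger value in COL were Rps4l -3.79, Cyp2u1 -2.53, Ces1d -2.25, Cox7a1 -2.22 and Ifi27 -2.12. Pcp4l1 had -11.58, with COL levels at or near the floor. The tissue call was lost for Ecm1 without BRAFp53 off replicate 1, BRAFp53 on replicate 2, p53 off replicate 1 or p53 on replicate 1 (edgeR adjusted p of 0.0817 to 0.0927), for Slc7a11 without BRAFp53 off replicate 2, BRAFp53 on replicate 2, p53 off replicate 2 or either p53 on replicate (edgeR adjusted p of 0.0611 to 0.0988) and for Nid1 without BRAFp53 off replicate 1, BRAFp53 on replicate 2, p53 off replicate 2 or either p53 on replicate (edgeR adjusted p of 0.0553 to 0.0811). It was also lost for Rps4l without BRAFp53 off replicate 1, BRAFp53 on replicate 2 or p53 off replicate 1 (edgeR adjusted p of 0.0545 to 0.141) and for Ces1d without BRAFp53 off replicate 1, BRAFp53 on replicate 2, p53 off replicate 1 or p53 on replicate 1 (edgeR adjusted p of 0.0813 to 0.0988).

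Outside the comparisons, Xist had 770 counts in replicate 1 of the SI culture with BRAFV600E alone after induction, against 12 and 27 counts in the off libraries of that culture and 8 in its other on library. That library entered the estimate of the spread, the scaling and the filter on low counts, and the fit on the 8 libraries alone leaves it out.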

How the results depend on the processing

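The direct comparison called 2243 genes, 1038 of them with an absolute log2 difference of at least 1, and 1012 to 2080 with 1 library left out. The difference of responses called 735 genes, 1430 with no filter on low counts, 1303 with DESeq2, 1103 from the 8 libraries alone and 321 to 653 with 1 library left out. Both tests called 714 genes, 1300 with no filter, 1214 with DESeq2, 439 at an absolute log2 difference of at least 1 and 311 to 627 with 1 library left out. The off comparison called 49 genes, 289 with no filter, 146 with DESeq2 and 17 to 51 with 1 library left out. The tissue difference called 103 genes, 715 with no filter, 484 with DESeq2 and 29 to 109 with 1 library left out. With no filter, edgeR estimated infinite prior degrees of freedom, against 7.06 with it, so the test took the spread from the trend and not from each gene's own replicates. The other causes were not tested. The other alternatives run for a count stayed within 1.5 times of it. The tissue difference was not fitted with a minimum average log2 CPM, a minimum log2 difference or the nested block, and the direct and off comparisons were not fitted with the nested block. Of the 714 genes, 705 also passed by DESeq2 and 677 by limma-voom.

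The replicate block gave 2181 direct, 731 difference of responses, 47 off, 134 tissue and 708 both-test calls, and a block nested in culture gave 585 for the difference of responses and 570 for both tests. The replicate numbers share only a number, since deviations of same-numbered libraries correlated at -0.06 to 0.12 across genes.

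Of 85 named genes that passed both tests, 47 kept both calls without each library in turn and 66 under every other alternative run. The block nested in culture lost Nmral1, Errfi1, Egr1, Tgfa, Muc13, Ly6a, F3, Tmigd1, Lamb3, Itga3, Krt7, Cldn3, Snai2, Elovl6 and Defa24. The replicate block lost Tgfa, Ly6a, Krt7 and Cldn3, and limma-voom lost Ramp1, Ly6a, Tmigd1, Sst and Ifit1. A minimum average log2 CPM of 1 lost or left out Ramp1, Il1a, Sst and Snai2, and DESeq2 did not call Il1a and Snai2. Of 3750 values of single named genes under the alternatives, 3388 kept direction and side of the threshold, 328 lost the call, 24 gained it and 10 changed sign. The sign changes had not passed the test in question and came with 1 library left out. In the direct comparison, Braf was at -0.11 without BRAFp53 on replicate 1 and ranged from -0.17 to 0.25 with each library left out, and Lgr5 was at -0.03 without p53 on replicate 2 and ranged from -0.10 to 0.49. In the difference of responses, Chgb ranged from -0.043 to 0.63, Angptl4 from -1.06 to 0.39 (0.32 without BRAFp53 off replicate 1), Slc34a2 from -1.24 to 0.98 (0.05 without BRAFp53 on replicate 1) and Acta1 from -0.039 to 0.46. With 2 libraries per group, a gene near the floor of 3 counts gives no usable fitted fold. The folds given above as at least a value are bounds set by that floor.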
